A study of Mus musculus with 9 samples.

Results

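Of 13655 genes measured in cardiomyocytes of newborn mice, 3013 (22.1%) had diet means that stood in the order of the fat in the maternal diet, and the other 10642 (77.9%) did not. The members described here are those 3013 genes. Each has a mean of at least 1 TPM (a length-corrected share of the library's transcripts) over the 9 libraries, out of 18738 genes listed, and a mean log2(TPM + 1) of the middle diet that lies between the means of the outer diets. Means increased from the normal to the high-fat diet in 788 of them (5.77% of all genes tested), called the rising order below, and decreased in 2225 (16.3%), called the falling order. The order is a statement about 3 means only, and no step in it needs to exceed the spread between libraries.

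The libraries came from cardiomyocytes isolated on the day of birth (P0) from wild-type C57BL/6J offspring. From fertilization to delivery the mothers received 1 of 3 diets: normal (ND), slight high-fat (sHFD) and high-fat (HFD), with 3 libraries for each. The labels give neither the fat content of the diets nor the animals or litters behind a library, so a p-value reflects how far these libraries scatter, and that scatter may be technical. The diets were scored 0, 1 and 2, an even spacing that the labels do not state. The comparison asks which genes of the newborn heart muscle cell follow the diets in order, within a study concerned with cardiomyocyte proliferation.

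Shortly after birth the mouse cardiomyocyte leaves the cell cycle, replaces fetal with adult contractile proteins and turns from glucose and lactate to fatty acids as its main fuel. Natriuretic peptides and ankyrin-repeat proteins of the sarcomere are made when ventricular muscle is stretched or loaded, and are standard readouts of cardiac strain. Resident macrophages, mast cells, pericytes, fibroblasts and endothelial cells share the heart with the muscle cells, and an isolate can carry some of their RNA.

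Differences between libraries that did not follow the order of the diets were large. The first principal component held 61.2% of the variance and placed ND replicate 1 (24.5) on the side of the HFD libraries (41.4 to 43.8), whereas ND replicates 2 and 3 (-35.3 and -16) lay on the side of the sHFD libraries (-37.4 to -31.2). Immediate-early and heat-shock genes, which respond to handling and stress within minutes, had a mean log2 level of 7.82 in ND replicate 1, 6.01 and 6.95 in the other ND libraries, 5.92 to 6.15 in sHFD and 7.45 to 8.06 in HFD. The 8 defining cardiomyocyte markers, among them Myh6 and Tnnt2, summed to 13227 to 19082 TPM in ND, 18811 to 25237 TPM in sHFD and 15171 to 16890 TPM in HFD, and none was at 0. The part of these differences in the results below was not tested, and results that rest on ND replicate 1 are also given without it.

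The slope of log2(TPM + 1) on the diet score passed limma's test in 1 gene, Nppb (0.00732% of genes tested for a higher level with the score, 0.0% for a lower one), while 2581 genes (18.9%) had an unadjusted p under 0.05, 1038 of them in rising or falling order. With 3 libraries per diet the slope equals the HFD mean minus the ND mean, divided by the 2 score steps, and the distance of sHFD from the line between them counts as residual. A model with diet as 3 separate groups leaves that distance out of the residual. In it, the HFD-minus-ND contrast passed in 1484 genes (10.9%), 175 higher (1.28%) and 1309 lower (9.59%), of which 53 stood in rising and 373 in falling order. The split depended on scaling: 668 were higher and 996 lower under median-ratio scaling (130 and 285 of them ordered), and 427 and 637 under quantile normalization (122 and 176). The order was read from the same means, so these counts describe the members and test nothing more.

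The first step of the order was not resolved for any member. The difference between sHFD and ND passed in 1 gene of 13655 (0.00732%; 1005, 7.36%, at an unadjusted p under 0.05), the predicted gene Gm5796, in which sHFD lay below both other diets, and in none of the 3013 ordered genes (67 at an unadjusted p under 0.05). The step from sHFD to HFD passed in 4665 genes (34.2%), 1406 higher in HFD (10.3%) and 3259 lower (23.9%), of which 53 were in rising and 348 in falling order. Both steps passed in one direction in 0 genes (0.0%), and reached an unadjusted p under 0.05 in 12 (0.0879%), 3 in rising order (Nppb, Ankrd1 and Tnfrsf12a) and 9 in falling order, among them Cyp26a1, Ly86, Mcpt4 and H2-Aa. Placed on a scale where ND is 0% and HFD is 100%, the sHFD mean of the ordered genes had a median position of 31.5% (quartiles 13.5% and 56.9%) and was nearer to ND in 2112 of 3013. The median position was 33.6% in rising and 30.5% in falling order.

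**Figure D1:**
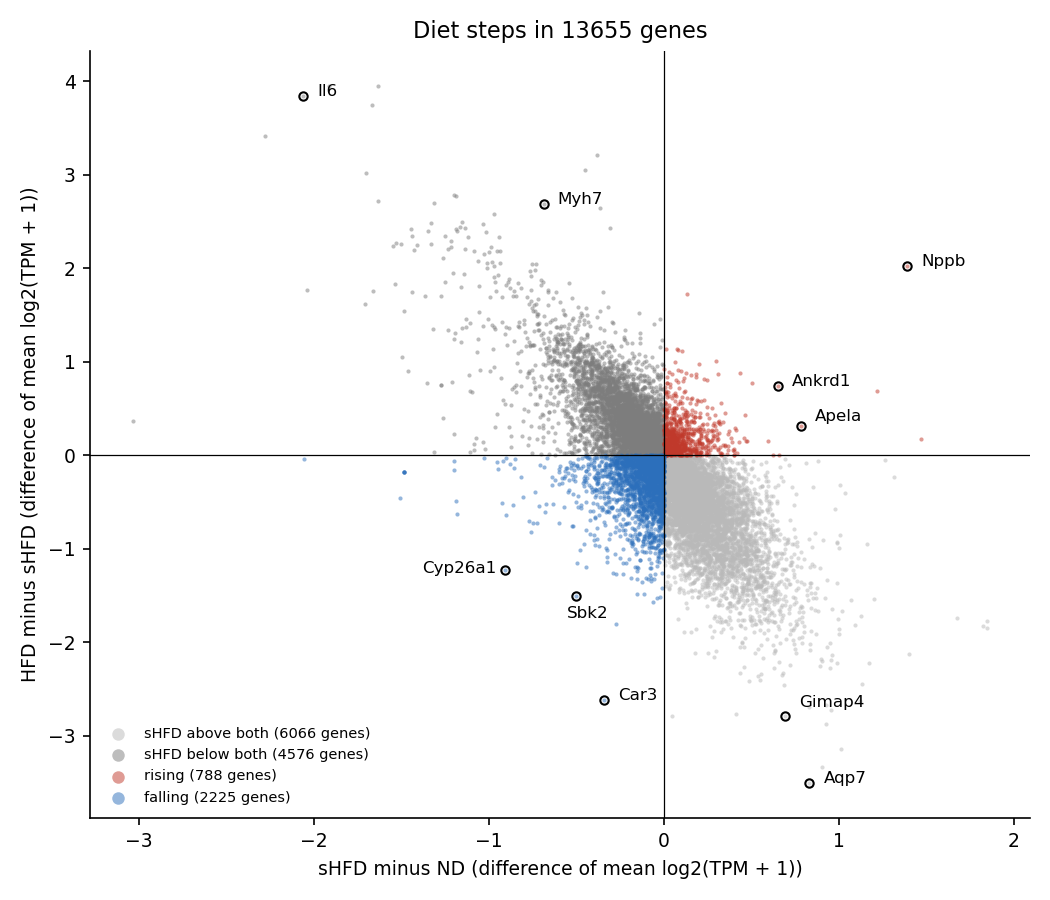
Each point is 1 of 13655 genes, with the sHFD-minus-ND difference of mean log2(TPM + 1) on the horizontal axis and the HFD-minus-sHFD difference on the vertical axis. The 788 genes in rising order (red) and 2225 in falling order (blue) lie in the quadrants where both steps have 1 sign, and most points lie in the other quadrants (6066 with sHFD above both diets, light grey, and 4576 with sHFD below both, dark grey). Nppb lies furthest along both axes in the rising quadrant among the labelled genes.

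Nppb (chr4:147985786-147987205, GRCm38.p6 as for all positions here), which encodes the B-type natriuretic peptide released by strained ventricular muscle, was the gene that rose with the diet score. It measured 79.1, 40.1 and 98.4 TPM in the ND libraries, 256, 102 and 221 TPM in sHFD and 854, 935 and 488 TPM in HFD. All 9 libraries stood in order, with every sHFD library above every ND library and below every HFD library. The means were 72.5 ± 29.7, 193 ± 80.7 and 759 ± 238 TPM (SD, n = 3 each), and the slope was 1.70 log2 units per diet step (SE 0.20, limma adjusted p = 0.0233). The ND-to-sHFD step was 1.39 (SE 0.37, adjusted p = 0.67) and the sHFD-to-HFD step 2.02 (SE 0.37, adjusted p = 0.00247). The slope stayed between 1.56 and 1.85 with any single library left out, but its test was lost without ND replicate 2 (adjusted p = 0.161), HFD replicate 1 (0.172) or HFD replicate 2 (0.149), and it passed without ND replicate 1 (0.0226). It was also lost under median-ratio scaling (adjusted p = 0.0663), quantile normalization (0.0873), no filter on low values (0.136), no variance trend (0.0502) and with sHFD scored 1.5 (0.444).

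Ankrd1 (chr19:36111965-36119844), a stretch-responsive ankyrin-repeat protein of the Z-disc region and nucleus, followed the same order at a higher level and just missed the test. Its libraries measured 389, 453 and 546 TPM in ND, 586, 778 and 823 TPM in sHFD and 1042, 1217 and 1372 TPM in HFD. No library of any diet overlapped with those of another. The slope was 0.69 (SE 0.10, limma adjusted p = 0.0625), and sHFD lay at 47% of the way from ND to HFD, close to the straight line (departure -0.04, adjusted p = 0.88). The HFD-minus-ND contrast was 3.41 for Nppb (adjusted p = 0.00139) and 1.39 for Ankrd1 (SE 0.19, adjusted p = 0.00403), and both passed it with each of the 9 libraries left out. The 150 bases before the RefSeq start of these genes (GRCm38.p6) are shown because these were the members in rising order with the smallest p for the slope. Capitals mark, in Nppb (chr4:147985750-147985899, plus strand), a TATAAA box beginning 31 bases before the start, and in Ankrd1 (chr19:36119845-36119994, minus strand), the reverse complement of CCAAT beginning 98 bases before it. The start used is the one of the RefSeq promoter table, and for Nppb it lies 114 bases inside the gene span given above, which holds an earlier start. A match is a description of the letters and no evidence of binding.
Nppb: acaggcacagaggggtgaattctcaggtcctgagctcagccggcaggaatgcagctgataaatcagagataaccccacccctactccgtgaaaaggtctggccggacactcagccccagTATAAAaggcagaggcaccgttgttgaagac
Ankrd1: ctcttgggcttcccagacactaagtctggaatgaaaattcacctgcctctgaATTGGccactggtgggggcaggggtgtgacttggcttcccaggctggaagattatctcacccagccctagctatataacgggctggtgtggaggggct

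The other genes in rising order had larger p-values for the slope. Tnfrsf12a, the receptor for the cytokine TWEAK, measured 56.4, 35.2 and 50.1 TPM in ND, 82.6, 52.2 and 67.5 TPM in sHFD and 130, 126 and 89.5 TPM in HFD. The HFD libraries lay above all others and the ND and sHFD libraries overlapped. Its HFD-minus-ND contrast was 1.28 (SE 0.22, adjusted p = 0.00938) and its slope test gave an adjusted p of 0.137; the contrast was lost with ND replicate 3 or HFD replicate 2 removed. Srf (chr17:46546838-46558267), the serum response factor that drives muscle and cytoskeletal genes, measured 99.6, 85.9 and 93.2 TPM in ND, 107, 114 and 104 TPM in sHFD and 153, 141 and 118 TPM in HFD. The 9 libraries were again in full order, with small steps (contrast 0.55, SE 0.15, adjusted p = 0.0333), and the contrast passed in 3 of 9 fits with a library left out.

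Jph1, a junctophilin that ties the sarcoplasmic reticulum to the cell membrane, averaged 8.12 ± 2.08, 9.42 ± 2.17 and 19.2 ± 0.31 TPM in ND, sHFD and HFD. Slmap, a tail-anchored membrane protein of striated muscle, averaged 113 ± 21.6, 117 ± 16.4 and 237 ± 41.8 TPM. In both genes nearly the whole difference fell between sHFD and HFD: sHFD stood at 16.9% and 5.86% of the distance. Retreg1, a receptor for the autophagy of endoplasmic reticulum, went from 62.8 ± 17.2 through 75.6 ± 8.28 to 153 ± 22.3 TPM (contrast 1.3, SE 0.20, adjusted p = 0.00755). Pard6b (chr2:168081004-168101203), a cell polarity protein, was in full order with narrow groups, at 4.76, 6.15 and 5.49 TPM in ND, 7.03, 6.96 and 7.21 TPM in sHFD and 10.5, 11.2 and 11 TPM in HFD. Its contrast was 0.89 (SE 0.18, adjusted p = 0.0142). Apela, a secreted peptide ligand of the apelin receptor, had its larger step early, with sHFD at 71.2% of the distance (4.04 ± 1.09, 7.77 ± 2.62 and 9.66 ± 1.32 TPM). The HFD-minus-ND calls of these genes were lost with HFD replicate 2 removed, those of all but Retreg1 also with ND replicate 3 removed, and those of Jph1, Pard6b and Apela also with HFD replicate 1 removed.

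Of 20 fetal and stress-associated cardiac genes, 8 were in rising and 0 in falling order, against 5.77% and 16.3% of all genes. Of the 8, 3 passed the HFD-minus-ND contrast (Nppb, Ankrd1 and the LIM-domain gene Fhl1), as did 53 of all 788 rising genes. Among all 20, 4 were called higher and 1 lower, against 1.28% and 9.59% of all genes. Nppa, the atrial natriuretic peptide, had the same order of means but ranged from 7291 to 9528 TPM in ND, 7432 to 11776 TPM in sHFD and 8711 to 16514 TPM in HFD. These ranges overlap, and its contrast of 0.55 did not pass (adjusted p = 0.222). Myh7, the fetal ventricular myosin, lay apart from the order: it measured 507, 193 and 213 TPM in ND, 258, 118 and 164 TPM in sHFD and 1214, 1183 and 948 TPM in HFD, with sHFD below ND. Of 24 mature sarcomere genes, 4 were in rising and 1 in falling order and 18 had sHFD above both other diets. Over all genes, sHFD lay above both in 44.4%. Cryab, a small heat-shock protein that protects the Z-disc, averaged 613 ± 59.1, 719 ± 62.8 and 1099 ± 259 TPM (contrast 0.82, adjusted p = 0.0217). Flnc, the filamin of striated muscle, averaged 101 ± 17.8, 112 ± 14.1 and 166 ± 27.5 TPM (contrast 0.71, adjusted p = 0.0283). Both calls were lost with ND replicate 3, HFD replicate 1 or HFD replicate 2 removed.

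Mitosis genes were split between the rising order and a dip at sHFD. Of 42 G2/M and mitosis genes, 19 were in rising order, against 5.77% of all genes, and 0 in falling order. Of the rest, 5 had sHFD above and 18 below both other diets. The median slope of the list was 0.29 against -0.069 over all genes tested. The HFD-minus-ND contrast passed in 14 of the 42, all higher, against 1.28% of all genes called higher. Of the 14, 4 were in rising order: Aurka, Cenpe, Cenpf and Ube2c. Aurka, the kinase of spindle poles, measured 14.2, 11.6 and 10.5 TPM in ND, 12.5, 16.2 and 12.8 TPM in sHFD and 32.7, 28.7 and 17.3 TPM in HFD. Every HFD library was above the others, and ND and sHFD overlapped. Ube2c, the ubiquitin-conjugating enzyme of the anaphase-promoting complex, averaged 54.8 ± 3.51, 55.6 ± 4.65 and 96.4 ± 16 TPM, so that sHFD stood at 2.56% of the distance. Mki67, the proliferation marker Ki-67, averaged higher in HFD, but sHFD replicate 2 (69.5 TPM) was close to HFD replicate 3 (71.2 TPM) and its contrast of 0.66 did not pass (adjusted p = 0.0696).

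The place of the mitosis list in the order rested on single libraries. The list summed to 920 to 1139 TPM in ND, 937 to 1326 TPM in sHFD and 1313 to 1831 TPM in HFD. HFD replicate 3 (1313 TPM) thus lay below sHFD replicate 2. Without sHFD replicate 2, which had the highest summed level of the list in its diet (1326 TPM against 943 and 937 TPM), 6 of 42 genes were in rising order. Without ND replicate 3 there were 10, and without ND replicate 1 there were 28. Over all genes tested, those in rising order numbered 788 with all libraries and 646, 553 and 1580 in these fits. Of the contrast, 0 calls were left once ND replicate 3, HFD replicate 1 or HFD replicate 2 was removed. Higher calls over all genes tested also fell in these fits, from 175 to 5, 10 and 4. The list had 5 calls with ND replicate 2 removed, 9 with sHFD replicate 1 removed, 6 with sHFD replicate 3 removed and 22 with ND replicate 1 removed. Those over all genes numbered 80, 108, 80 and 987. Median-ratio scaling of the libraries gave 25 calls in the list and 668 higher calls over all genes. In all of these fits, and under quantile normalization, 0 mitosis genes were in falling order. Of 40 DNA replication and G1/S genes, 30 had sHFD above both diets (44.4% of all genes), 3 were in falling and 0 in rising order. In falling order there were 18 with ND replicate 1 removed and 18 with sHFD replicate 2 removed, against 1 to 4 for each other library. Over all genes, those in falling order numbered 2225 with all libraries, 3366 without ND replicate 1 and 2699 without sHFD replicate 2. The 2 lower calls of the contrast became 15 with ND replicate 1 removed, while those over all genes went from 1309 to 2855. Ccnd1, the G1 cyclin D1, measured 101, 186 and 148 TPM in ND, 199, 271 and 192 TPM in sHFD and 79.7, 85.5 and 78.3 TPM in HFD, which placed it apart from the order.

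Of 27 glycolysis genes, 11 were in rising and 0 in falling order, and 14 had sHFD above both diets. The shares over all genes were 5.77%, 16.3% and 44.4%, so the count above both diets is near that of all genes. The 11 ran along the pathway from the glucose transporter Slc2a1 through Gpi1, Aldoa, Gapdh, Pgk1, Eno1 and Pkm to lactate dehydrogenase (Ldha) and the lactate carrier Slc16a1. Slc2a1 measured 25.7, 29.7 and 29 TPM in ND, 29.9, 29.2 and 33 TPM in sHFD and 47.3, 40.8 and 40.5 TPM in HFD (contrast 0.59, adjusted p = 0.0305). Pgk1, phosphoglycerate kinase, measured 405, 513 and 431 TPM in ND, 572, 531 and 570 TPM in sHFD and 839, 865 and 513 TPM in HFD. HFD replicate 3 therefore lay below all 3 sHFD libraries, and the contrast of 0.68 (adjusted p = 0.0449) was kept only without HFD replicate 3. The median slope of the list was 0.11, with a median ND-to-sHFD step of 0.27 and a median sHFD-to-HFD step of -0.14. The 3 calls of the list, all higher, were Slc2a1, Pgk1 and the pyruvate dehydrogenase kinase Pdk1, against 1.28% of all genes called higher. There were 0 higher calls once ND replicate 3, sHFD replicate 1 or 3, or HFD replicate 1 or 2 was removed. Higher calls over all genes then numbered 5, 108, 80, 10 and 4. The list had 1 with ND replicate 1 or sHFD replicate 2 removed (987 and 134 over all genes). It had 2 with ND replicate 2 removed (80), and 7, with 1 lower, with HFD replicate 3 removed (150). Of 20 hypoxia genes, 5 were in rising and 0 in falling order, against 5.77% and 16.3% of all genes. Bnip3, a mitochondrial autophagy receptor, averaged 60.2 ± 12.9, 60.2 ± 7.19 and 109 ± 21.9 TPM, with sHFD level with ND.

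Epicardial markers were mostly in rising order, 6 of 10 against 5.77% of all genes, with 0 in falling order. Their summed level was 360 to 446 TPM in ND, 321 to 536 TPM in sHFD and 516 to 552 TPM in HFD. None was at 0 in any library, and their part in the rise of other genes was not tested. Upk1b, a uroplakin of the mesothelial surface, measured 22.8, 27.2 and 22.6 TPM in ND, 16.9, 29.8 and 35.5 TPM in sHFD and 43, 46 and 39.1 TPM in HFD (contrast 0.80, adjusted p = 0.0443), and the call was lost with any of 6 libraries removed. Aldh1a2, which makes retinoic acid, was called lower in HFD (contrast -0.86, adjusted p = 0.0352) and had sHFD above both diets. Of the 10 markers, 0 to 3 were called higher with a library removed and 4 under median-ratio scaling. Over all genes tested, 4 to 987 were called higher with a library removed and 668 under median-ratio scaling. The sHFD libraries of Upk1b spanned both sides of the ND libraries. In bulk RNA, more cells of a type and more RNA per cell cannot be told apart.

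**Figure D2:**
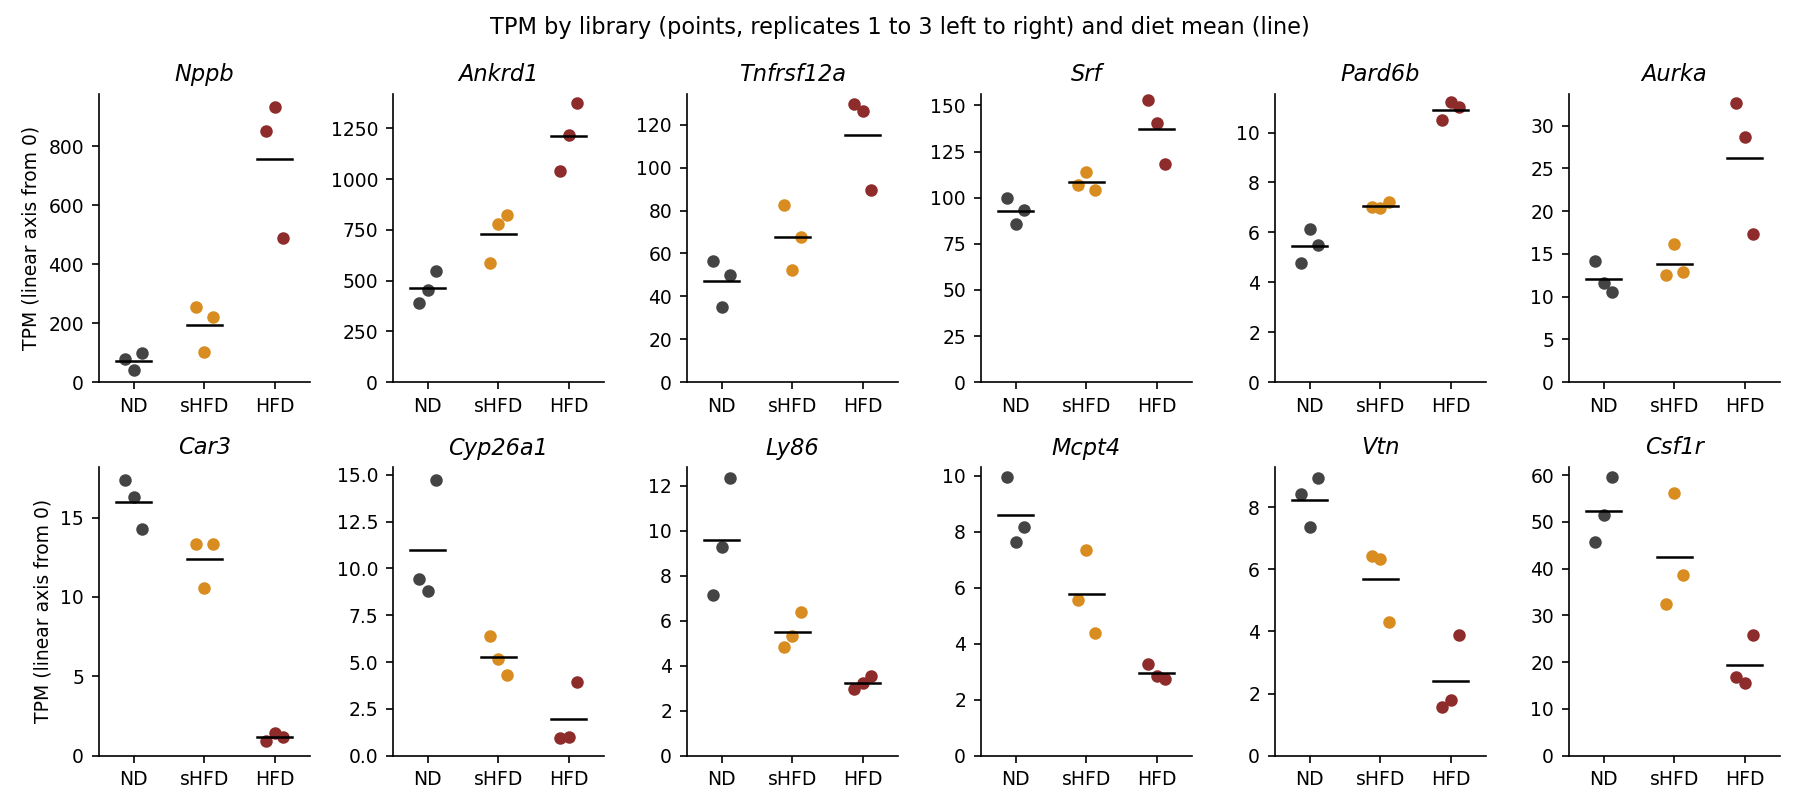
TPM of 12 members in each library (points, replicates 1 to 3 from left to right within a diet) with the diet mean (line), on linear axes that start at 0. The upper row holds genes in rising order and the lower row genes in falling order. Nppb, Ankrd1, Srf and Pard6b above and Car3, Cyp26a1, Ly86, Mcpt4 and Vtn below have all 9 libraries in order, while Tnfrsf12a, Aurka and Csf1r have ND and sHFD libraries that overlap.

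On the falling side, Car3 had the smallest p of any ordered gene in the HFD-minus-ND contrast. Car3 (chr3:14863538-14872381), a cytosolic carbonic anhydrase abundant in skeletal muscle and adipose tissue, measured 17.4, 16.3 and 14.3 TPM in ND, 13.3, 10.6 and 13.4 TPM in sHFD and 0.94, 1.41 and 1.19 TPM in HFD. All 9 libraries were in order, but the fall lay almost wholly between sHFD and HFD, with sHFD at 11.6% of the distance. The contrast was -2.96 (SE 0.19, adjusted p = 1.25e-05), the slope -1.48 (SE 0.21, adjusted p = 0.0674) and the departure of sHFD above the line 1.14 (SE 0.17, adjusted p = 0.0102). The contrast passed with each of the 9 libraries left out. Such a departure test passed in 9 of the 3013 ordered genes, all in falling order and all with sHFD near ND, against 1931 of all 13655 genes. A mean between the outer diets limits the departure, so a low count follows from how the members were chosen. Aplnr, the apelin receptor, and Lsp1, a leukocyte actin-binding protein, were others of the 9.

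Aplnr measured 182, 206 and 205 TPM in ND, 205, 186 and 174 TPM in sHFD and 75.8, 78 and 71.7 TPM in HFD. ND and sHFD overlapped in part and HFD was well below both (contrast -1.38, SE 0.14, adjusted p = 0.000795). Lsp1 measured 81.8, 112 and 120 TPM in ND, 85.7, 111 and 83.3 TPM in sHFD and 39.1, 38.7 and 41.8 TPM in HFD (contrast -1.35, SE 0.18, adjusted p = 0.00327). Aplnr, which encodes the receptor, was thus in falling order and Apela, which encodes a ligand of it, in rising order. Both Aplnr and Lsp1 passed the contrast with each library left out.

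Cyp26a1 (chr19:37697738-37701536), the enzyme that degrades retinoic acid, was in full order with steps of more equal size. It measured 9.45, 8.77 and 14.7 TPM in ND, 6.41, 5.17 and 4.31 TPM in sHFD and 0.93, 1.01 and 3.93 TPM in HFD. HFD replicate 3 lay just below the lowest sHFD library. The steps were -0.91 (SE 0.33, unadjusted p = 0.0169, adjusted p = 0.672) and -1.22 (SE 0.33, adjusted p = 0.0146), the slope was -1.07 (SE 0.17, limma adjusted p = 0.115), and the HFD-minus-ND contrast of -2.13 (adjusted p = 0.00755) was lost without ND replicate 3 or HFD replicate 2. Its promoter (GRCm38.p6, chr19:37697658-37697807, plus strand) is shown because it holds a repeat of the hexamer TGAACT, in capitals, beginning 32 and 21 bases before the start and 5 bases apart. The start used lies 70 bases inside the gene span given above. Repeats of such hexamers with that spacing are the arrangement to which retinoic acid receptors are known to bind. This pair was looked for after the sequence had been seen, with these exact hexamers, and its 1 hit in 10871 promoters (0.0092%) is Cyp26a1 itself. Pairs of other hexamers were not searched, so the share does not tell how rare receptor sites are. Binding was not tested. The single hexamer stood in 8.55% of all promoters and in 11% of those in falling order.
Cyp26a1: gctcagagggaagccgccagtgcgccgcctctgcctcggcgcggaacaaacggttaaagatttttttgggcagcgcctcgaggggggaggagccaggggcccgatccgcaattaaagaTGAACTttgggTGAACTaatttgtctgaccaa

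Immune cell markers were the list with the largest share in falling order among the 34 examined. Of 23 markers, 19 were in falling order, against 16.3% of all genes, and 0 in rising order. Cx3cr1 and Cd52 had sHFD above both diets and Lyve1 and Cd53 had it below. The median slope was -0.46 against -0.069 over all genes, with medians of -0.34 for the first step and -0.72 for the second. The HFD-minus-ND contrast passed in 17, all lower, 15 of them in falling order, against 9.59% of all genes called lower. The summed level was 906, 809 and 1189 TPM in ND, 638, 790 and 829 TPM in sHFD and 522, 519 and 596 TPM in HFD, with none of the 23 at 0 in any library, and the part of immune cells left in the isolate in the falling order was not tested. HFD lay below every other library, while sHFD replicate 3 was above ND replicate 2.

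Csf1r, the growth factor receptor of macrophages, measured 45.7, 51.5 and 59.5 TPM in ND, 32.4, 56.2 and 38.6 TPM in sHFD and 16.7, 15.6 and 25.8 TPM in HFD (contrast -1.41, SE 0.23, adjusted p = 0.00867). Cd74, the invariant chain of antigen presentation, averaged 19.9 ± 4.08, 16 ± 5.31 and 6.48 ± 0.88 TPM (contrast -1.47, adjusted p = 0.00824). Lyz2, the macrophage lysozyme, has a close copy in Lyz1 between which reads could be split, and averaged 125 ± 17.7, 107 ± 22.3 and 60.1 ± 0.92 TPM (contrast -1.03, adjusted p = 0.00883). In these genes sHFD stood between 22.1% and 23% of the way from ND to HFD. Ly86, a partner of a Toll-like receptor on B cells and macrophages, was in full order at 7.14, 9.27 and 12.4 TPM in ND, 4.83, 5.32 and 6.37 TPM in sHFD and 2.95, 3.23 and 3.56 TPM in HFD. Its sHFD mean lay at 52.7% of the distance (contrast -1.29, SE 0.22, adjusted p = 0.00938). Mcpt4, a mast cell protease from a family of related genes, was also in full order, at 9.96, 7.64 and 8.18 TPM in ND, 5.58, 7.37 and 4.39 TPM in sHFD and 3.28, 2.84 and 2.73 TPM in HFD (contrast -1.28, SE 0.21, adjusted p = 0.00921).

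The order of the immune list held with any library left out, with 15 to 20 of 23 genes in falling and 0 in rising order, and with 18 under median-ratio scaling and 17 under quantile normalization. Over all 13655 genes, those in falling order numbered 1914 to 3366 with a library left out, 1551 under median-ratio scaling and 1484 under quantile normalization. The number of HFD-minus-ND calls did not: 17 became 1 with ND replicate 3 removed, 6 with HFD replicate 1 removed and 1 with HFD replicate 2 removed, against 15 to 18 for each of the others, 12 under median-ratio scaling and 10 under quantile normalization. Lower calls over all genes also fell, from 1309 to 34, 117 and 28 with those libraries removed in turn. They numbered 544 to 2855 for each of the others, 996 under median-ratio scaling and 637 under quantile normalization. Csf1r, Cd74, Lyz2, Ly86 and Mcpt4 each lost the call when ND replicate 3 or HFD replicate 2 was removed. Inflammatory cytokine and chemokine genes were not part of it. Of 25 such genes 1, Il1b, was in falling order and 20 had sHFD below both diets, against 33.5% of all genes below both.

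**Figure D3:**
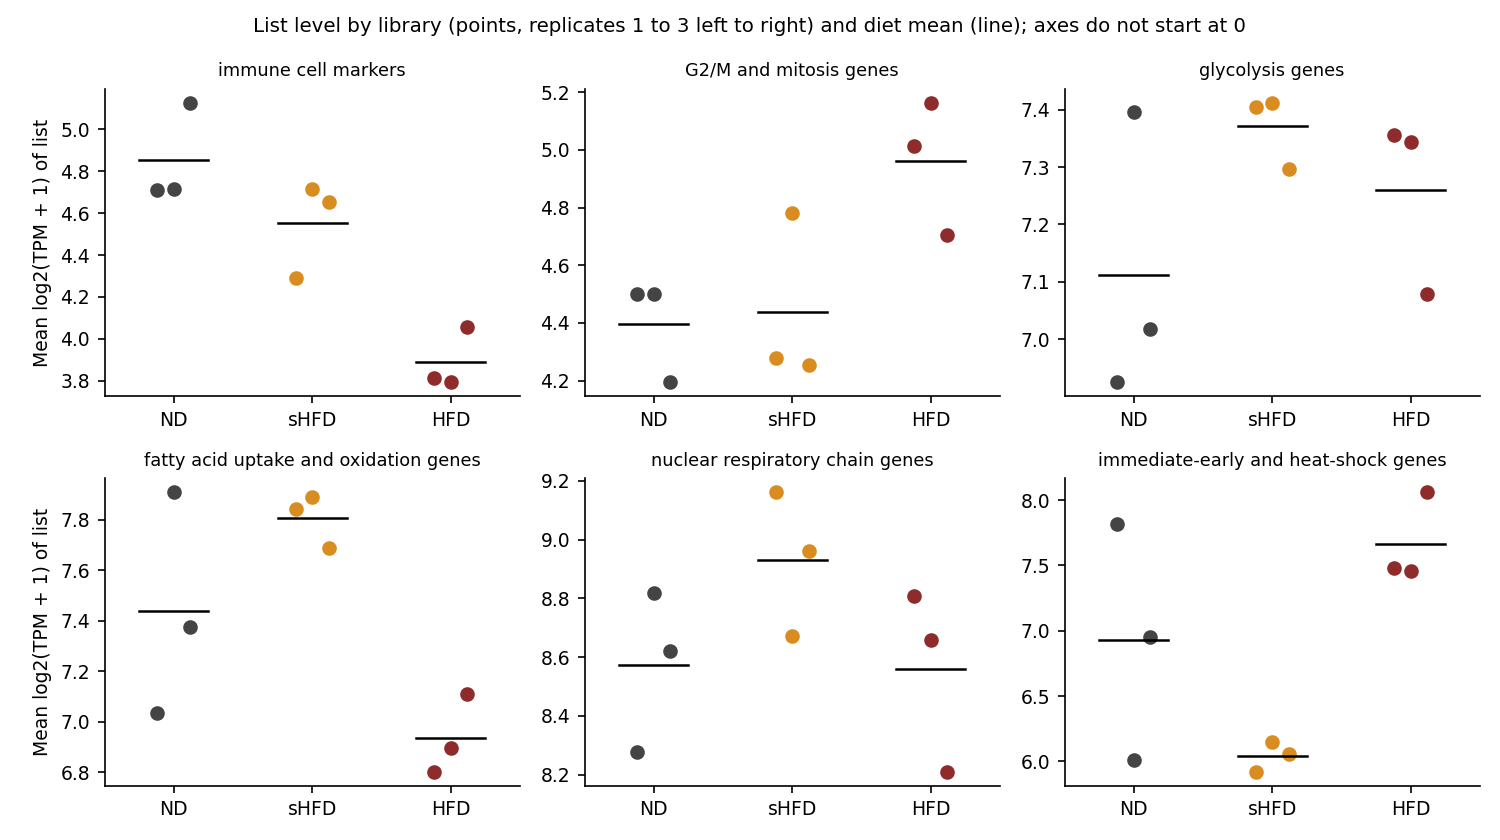
Mean log2(TPM + 1) of 6 gene lists in each library (points, replicates 1 to 3 from left to right) with the diet mean (line); the axes do not start at 0. By diet mean, the immune cell markers step down from ND to HFD and the mitosis genes are highest in HFD. In the mitosis genes, HFD replicate 3 (4.71) lies below sHFD replicate 2 (4.78). The glycolysis, fatty acid and respiratory chain genes have their highest mean in sHFD. The immediate-early genes are lowest in sHFD, with ND replicate 1 at 7.82 among the HFD values.

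Pericyte, atrial, fibroblast and endothelial markers had shares in falling order that are read here against the 16.3% of all genes. Vtn, vitronectin, which cardiac pericytes express, was in full order at 8.43, 7.35 and 8.92 TPM in ND, 6.43, 6.32 and 4.31 TPM in sHFD and 1.57, 1.8 and 3.88 TPM in HFD (contrast -1.49, SE 0.26, adjusted p = 0.00938), lost with ND replicate 3, HFD replicate 1 or HFD replicate 2 removed. Rgs5, a pericyte regulator of G-protein signalling, averaged 251 ± 30.6, 241 ± 15.5 and 128 ± 56.2 TPM, and the HFD spread came from replicate 3 (192 TPM against 86.6 and 106 TPM). Of 14 smooth muscle and pericyte markers, 3 were in falling order (Vtn, Rgs5 and the pericyte receptor Pdgfrb), 4 in rising order, among them the contractile genes Cnn1 and Tagln, and 7 had sHFD above both. The share in falling order is close to that of all genes. The HFD-minus-ND contrast was called lower in 6 of the 14 and higher in 1, against 9.59% and 1.28% of all genes. The lower calls became 1 with ND replicate 3, HFD replicate 1 or HFD replicate 2 removed. Those over all genes went from 1309 to 34, 117 and 28. None was at 0, and the summed level was 2115 to 2448 TPM in ND, 2632 to 3447 TPM in sHFD and 2363 to 2769 TPM in HFD, highest in sHFD. That sum gives most weight to abundant members. The mean log2 level was 6.26 to 6.34 in ND, 6.32 to 6.62 in sHFD and 5.80 to 6.08 in HFD, lowest in HFD.

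Sbk2 and Sbk3, neighbouring kinase genes on chromosome 7 that are expressed in atrial muscle, were both in falling order. Sbk2 measured 41.6, 62 and 53.1 TPM in ND, 26.1, 48.6 and 36.9 TPM in sHFD and 10.1, 7.46 and 22.8 TPM in HFD (contrast -2.01, SE 0.33, adjusted p = 0.00867). HFD lay below every other library although HFD replicate 3 came close to the lowest sHFD library. Sbk3 averaged 23.8 ± 8.07, 19.9 ± 8.06 and 7.67 ± 3.85 TPM (contrast -1.55, SE 0.36, adjusted p = 0.0202). Across 14 atrial genes, 2 were in falling and 2 in rising order, Nppa and Bmp10, so the list as a whole had no single order. Its summed level was 13781 to 18286 TPM in ND, 11574 to 19805 TPM in sHFD and 14540 to 26860 TPM in HFD, with none at 0. The calls of Sbk2 and Sbk3 were lost with ND replicate 3 or HFD replicate 2 removed, and that of Sbk3 also with ND replicate 2 or HFD replicate 1 removed.

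Of 29 collagen and matrix genes, 8 were in falling and 0 in rising order and 20 had sHFD below both diets. The shares over all genes were 16.3%, 5.77% and 33.5%. The HFD-minus-ND contrast passed in 0 of the 29, against 10.9% of all genes tested. Lum, the proteoglycan lumican, measured 250, 305 and 326 TPM in ND, 168, 208 and 245 TPM in sHFD and 153, 192 and 236 TPM in HFD. Its first step of -0.51 was the larger, the sHFD and HFD libraries overlapped, and its contrast of -0.61 did not pass (adjusted p = 0.0593). Fibroblast markers were in falling order in 4 of 15 and endothelial markers in 4 of 18, against 16.3% of all genes. Under median-ratio scaling these counts were 0 and 1, and that of the matrix list was 4. Genes in falling order over all genes tested then numbered 1551, against 2225 as deposited. Their summed levels were 10477 to 13057 and 7599 to 11979 TPM in ND, 8831 to 11326 and 8863 to 10125 TPM in sHFD, and 10411 to 11456 and 8434 to 8890 TPM in HFD, with no marker at 0.

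**Figure D4:**
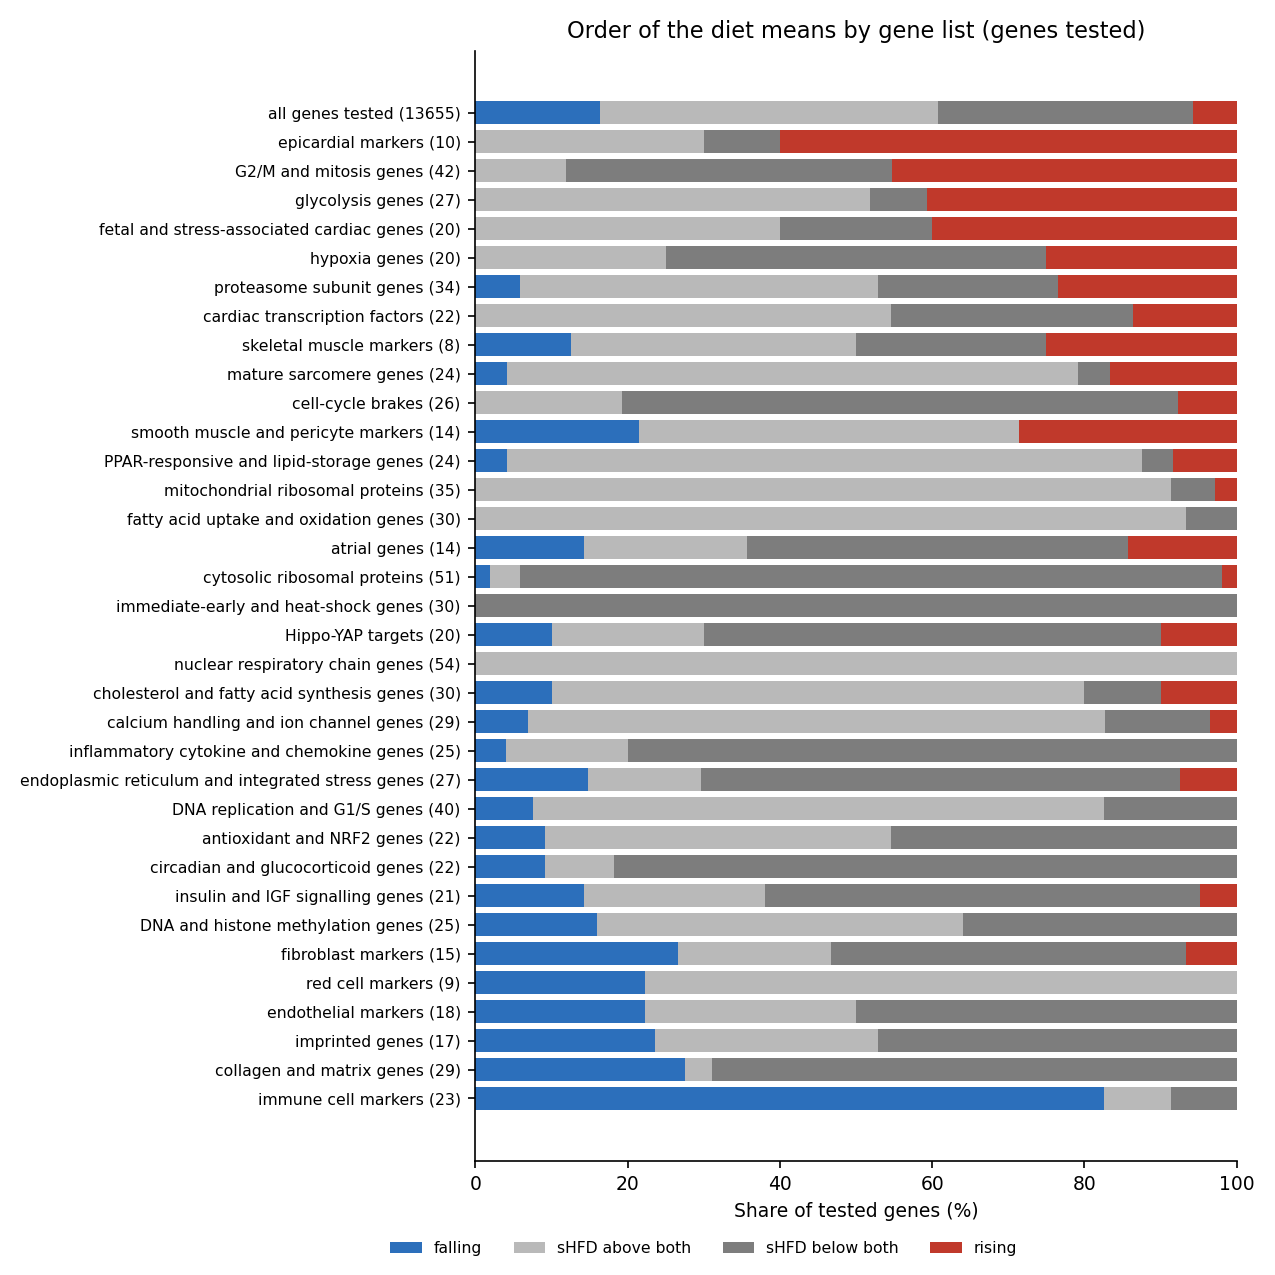
Share in percent of the tested genes of each list (number in brackets) whose diet means were in falling order (blue), had sHFD above both diets (light grey), had sHFD below both (dark grey) or were in rising order (red); the top bar is all 13655 genes. Immune cell markers have the widest blue bar (19 of 23), epicardial markers (6 of 10) and mitosis genes (19 of 42) the widest red bars, and the nuclear respiratory chain (54 of 54 above) and immediate-early genes (30 of 30 below) have neither.

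Full separation of the 9 libraries, every ND library on one side of every sHFD library and those on one side of every HFD library, was seen in 40 ordered genes, 7 rising (0.0513% of genes tested) and 33 falling (0.242%). Among the rising genes were Nppb, Ankrd1, Pard6b, Srf, Bst1 and the clone-named 4930512M02Rik. Among the falling genes were Colec11, a soluble pattern-recognition lectin (69.1 ± 7.09, 59.2 ± 3.43 and 28.4 ± 15.1 TPM), Sigirr, which dampens interleukin and Toll-like receptor signals (13.7 ± 0.83, 12.1 ± 0.43 and 4.88 ± 1.71 TPM), and Art4, an ADP-ribosyltransferase of blood cell surfaces (37.1 ± 5.06, 27.8 ± 2.36 and 17.3 ± 3.93 TPM). Colec11 and Sigirr had sHFD at 15.9% and 12.3% of the distance and Art4 at 37%. ND and HFD libraries alone did not overlap in 1208 of the 3013 ordered genes and 2606 of the 10642 others, in all 3814 of genes tested (27.9%). The order was read from the same values, so these counts are a description.

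In the genes apart from the order, sHFD lay above both diets in 6066 genes (44.4%) and below both in 4576 (33.5%), and its departure from the line between ND and HFD passed in 1352 genes above (9.9%) and 579 below (4.24%), of which 9 were ordered. These calls needed all 3 sHFD libraries: without sHFD replicate 1, 2 or 3 they became 2, 2 and 0 above and 1, 7 and 0 below. All 54 nuclear respiratory chain genes and 28 of 30 fatty acid uptake and oxidation genes had sHFD above both diets, with 0 in either order. Aqp7, a glycerol channel, measured 19.9, 45.5 and 42.6 TPM in ND, 67, 51.9 and 65.2 TPM in sHFD and 3.68, 4.57 and 5.27 TPM in HFD, a departure of 2.17 (adjusted p = 0.00458). All 30 immediate-early and heat-shock genes had sHFD below both. With ND replicate 1 removed, 5 of them were in rising order, 10 passed the slope test, and the contrast was called higher in 18 in place of 2. Over all genes in that fit, 1580 were in rising order and 445 (3.26%) passed the slope test higher. The contrast was called higher in 987 genes in place of 175. Il6, the cytokine interleukin-6, measured 18.7, 2.16 and 7.47 TPM in ND, 0.78, 1.3 and 0.77 TPM in sHFD and 23.5, 35.1 and 23.3 TPM in HFD, a departure of -2.95 (adjusted p = 0.00979), and in it ND replicate 1 was the ND library closest to HFD.

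Class membership close to the boundary was loose. In 1194 ordered genes and in 1531 of the others, the sHFD mean was within 0.05 log2 units of the ND or the HFD mean. Among 112 genes with a mean between 1 and 1.1 TPM, 32 were ordered, and among 142 genes just under the filter (0.9 to 1 TPM), 45 had their means in order. When each library was removed in turn, 138 of 788 rising genes and 664 of 2225 falling genes kept their class throughout. The libraries differed in how often they stood out of place, which for an ND or HFD library means beyond the sHFD mean and for an sHFD library outside the ND and HFD means. This share of the 3013 ordered genes was 13.6%, 10.2% and 33.8% for HFD replicates 1, 2 and 3. It was 35.8%, 33.2% and 22.9% for ND replicates 1, 2 and 3. For sHFD replicates 1, 2 and 3 it was 43.6%, 60.9% and 37.0%. An sHFD library can be out of place on either side, so its share does not compare directly with those of ND and HFD.

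Which library weighed most differed between the tests. Ordered genes and slope calls were most numerous with ND replicate 1 removed. Without it, 4946 genes (36.2%) were in order, 1580 rising and 3366 falling, and the slope test passed in 445 genes higher (3.26%) and 1666 lower (12.2%), of which 208 and 903 were in order. In that fit Ankrd1, Tnfrsf12a, Car3, Cyp26a1, Ly86, Mcpt4, Aplnr, Csf1r and Aurka passed with adjusted p from 0.0289 to 0.031, and both steps still passed in 0 genes. Leaving out other libraries changed the HFD-minus-ND calls among ordered genes, 53 rising and 373 falling. Counted anew in each fit, they numbered 3 and 11 with ND replicate 3 removed, 5 and 38 with HFD replicate 1 removed, and 2 and 13 with HFD replicate 2 removed. There were 342 and 1279 once ND replicate 1 was removed, 56 and 234 for ND replicate 2, 48 and 236 for sHFD replicate 1, 38 and 433 for sHFD replicate 2, 30 and 207 for sHFD replicate 3, and 71 and 565 for HFD replicate 3. Of the 42 ordered genes chosen for naming that passed this contrast, 6 still passed when ND replicate 3 was removed, 16 for HFD replicate 1 and 5 for HFD replicate 2, against 33 to 41 for each other library.

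The excess of falling over rising genes depended on the scaling of the libraries. The median slope of all genes was -0.069 as deposited, and 26.2% of the ordered genes were rising. With libraries scaled to a common median ratio the median slope was 0.0038 and 1370 genes were in rising and 1551 in falling order (46.9% rising). Quantile normalization gave 1383 and 1484 (48.2% rising). Of the genes in rising order as deposited, 759 kept it under median-ratio scaling, and of those in falling order 1487 did. Of 100 genes that met the rule for naming, 8 changed the sign of their slope with some library removed, 4 of them ordered, and none of these 8 is described here by a value.

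**Figure D5:**
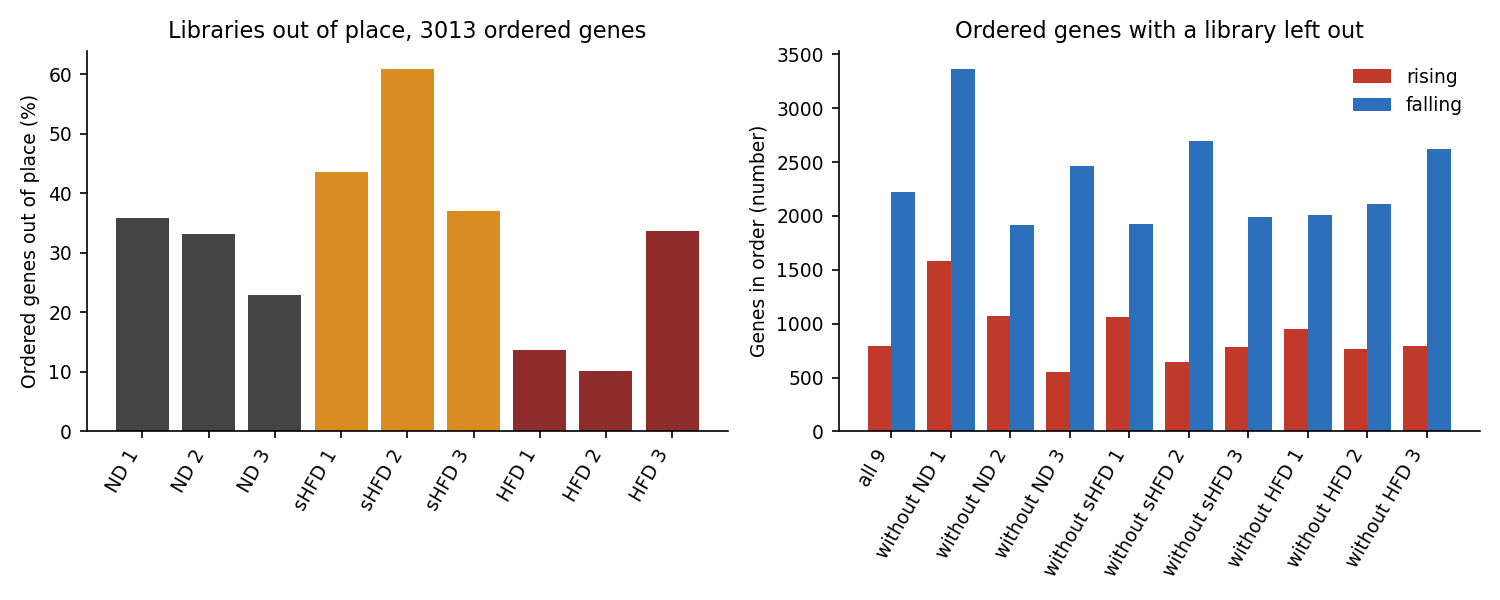
Left, percentage of the 3013 ordered genes in which a library stood out of place, one bar per library from 0; right, number of genes in rising (red) and falling (blue) order with all 9 libraries and with each library left out. sHFD replicate 2 has the highest bar on the left (60.9%), and leaving out ND replicate 1 gives the highest counts on the right (1580 and 3366).

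The level, genomic span and promoter letters of the ordered genes are given as a description. Their median level was 19.9 TPM against 24.8 TPM for genes apart from the order. The median genomic span was 25.6 kb for rising and 22.5 kb for falling genes, against 21.9 kb with sHFD above and 25.6 kb with sHFD below both diets. RefSeq promoters, 250 bases before the start and searched on both strands, were matched for 10871 of the 13655 genes. CCAAT stood in 36.7% of all of them, in 36.3% of 614 rising and 34.9% of 1735 falling ones, and in 21 of 42 that were rising and passed the HFD-minus-ND contrast. TGACG, the core of cyclic AMP response elements, stood in 26.0% of all, 25.9% of rising and 19.9% of falling promoters, and in 44 of 289 (15.2%) that were falling and passed the contrast. TATAAA stood in 6.6% of all promoters, 6.35% of rising and 6.22% of falling ones. GGGCGG, the Sp1 box, stood in 58.1%, 57.7% and 54.4%, and in 47.6% of rising and 46.7% of falling promoters whose genes passed the contrast. These shares are given with no test.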

How the data were processed

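RNA of newborn mouse cardiomyocytes was sequenced in 9 libraries, 3 per maternal diet, grouped by GEO's labels. The authors deposited 1 table of TPM values per gene and library (18738 genes, each column summing to about the same total), and per the submitters' processing notes RSEM 1.3.1 and GRCm38 were used, with no role or order given. Library depth is unknown because TPM does not record it, and no counting interval is given.

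Here, genes averaging 1 TPM or more were put on the log2(TPM + 1) scale, with a pseudocount of 1, which understates the change of low genes. All contrasts, standard errors and adjusted p-values in the text come from limma 3.58.1 (R 4.3.3), fitted over all 13655 genes with moderated variances that follow mean expression, two-sided, Benjamini-Hochberg adjusted, threshold 0.05. The slope used the diet score with 7 residual degrees of freedom. The steps, the HFD-minus-ND contrast and the departure (sHFD minus the mean of ND and HFD) used diet as a factor, with 6. The code was tested on simulated data.

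Members, 34 gene lists and tests were chosen with earlier results of these data known. Genes named with values averaged 5 TPM or more and had no clone or predicted symbol. They were the ordered genes without overlap of ND and HFD with a called slope, filled up by the smallest slope p (12 in each direction), the 6 in each direction with the full order of 9 libraries, any called in both steps, the 5 largest departures in each direction, the 2 ordered members of each list with the smallest slope p, and a fixed set of cardiac and metabolic genes. Gm5796, Aldh1a2, Bst1 and 4930512M02Rik, and list members given by name alone, fall outside this rule and were named after their values were seen. Promoter sequences and gene positions are from RefSeq on GRCm38.p6.

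Alternatives were another pseudocount and filters, other scaling, no variance trend, a replicate block, other diet spacings, a linear contrast in the factor model, and each library left out. A gene in full rising order that met the naming rule is not reported here.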

Additional observations from a re-analysis of the deposited data

How the results depend on the processing

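The number of genes called for the slope (1) was 0 with no filter on low values, with median-ratio scaling, with quantile normalization, with no variance trend and with sHFD scored 1.5, 1944 with sHFD scored 0.5, 1484 for the linear contrast of the factor model, and 0 to 2111 with a library removed, highest for ND replicate 1. Rising genes numbered 1299 with no filter, 1370 under median-ratio and 1383 under quantile scaling, and 553 to 1580 with a library removed, and falling genes 1914 to 3366. Departures above numbered 265 with no filter and 0 to 2620 with a library removed. Departures below numbered 83 with no filter, 1339 under median-ratio and 1210 under quantile scaling, and 0 to 1037 with a library removed. For sHFD minus ND the count (1) was 0 at a pseudocount of 0.1, with no filter and at a mean of at least 5 TPM, and 0 to 360 with a library removed, highest for ND replicate 2. HFD-minus-sHFD calls ranged from 2696 to 5458. The full order of 9 libraries was rising in 11 genes with no filter, 23 under median-ratio and 23 under quantile scaling, and falling in 18 under quantile scaling. With a library removed it held in 8 to 51 rising and 36 to 170 falling genes, where fewer libraries must be in order.

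The labels do not say whether same-numbered libraries belong together, so a pairing is unknown. The 9 correlations of their deviations ran from -0.287 to 0.413, and 5 of 9 libraries correlated best with their own number. With the replicate block, the slope passed in 2 genes, Nppb and Ankrd1 (adjusted p = 0.0444 each), and the sHFD-minus-ND step in 0. The HFD-minus-ND contrast was then called higher in 193 genes and lower in 1493, against 175 and 1309 without the block. For 68 of the 100 genes that met the naming rule, picked for the text with their values known, and their alternatives (1292 pairs), the slope kept its direction and its side of the threshold in 1128, newly passed in 156 and was lost in 8, all Nppb. Of all 100, 8 changed sign with a library removed, among them Sod1, Hlf, Rpl19 and Pdk4 of the ordered genes. The cause of these changes was not tested. Depth is unknown, so what it limits cannot be stated.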
